A study of Homo sapiens with 6 samples.

Results

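EGFR ligands and ERBB receptors were followed as 10 genes: the ligands AREG, EREG, HBEGF, TGFA and NRG1, the receptors EGFR, ERBB2 and ERBB3, the ligand-releasing protease ADAM17, and the receptor inhibitor ERRFI1. They were taken by symbol from the deposited table of read counts, where all 10 were found among 39323 genes. The cells were MDA-MB-231, a human triple-negative breast cancer line, transfected either with an siRNA duplex that targets the splicing factor subunit SF3B6 (siSF3B6, 3 libraries) or with a non-targeting duplex (siNC, 3 libraries). Both groups received a duplex with the same lipid reagent, and polyadenylated RNA was sequenced. The design text calls the replicates biological, and no label ties them to separate cultures, so each p-value speaks only for the spread seen among these 6 libraries. The siRNA knockdown rests on 1 duplex in 1 cell line.

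The ERBB receptors are membrane tyrosine kinases that act as pairs. AREG, EREG, HBEGF and TGFA are made as membrane-anchored precursors, are cut loose by proteases such as ADAM17, and bind EGFR, while NRG1 binds ERBB3. ERBB2 has no known ligand of its own and ERBB3 has a weak kinase, so each signals mainly with a partner. Activated receptors feed the RAS-ERK and PI3K cascades, and ERRFI1 (MIG6) is a feedback protein that binds the kinase domain of EGFR and blocks it. Triple-negative lines such as this one are known for EGFR without amplified ERBB2.

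AREG and EREG lie side by side on chromosome 4, and both were higher in siSF3B6, so the sequences before their start sites are shown with that of HBEGF, another ligand that was higher. Each line gives the 250 bases before the start in RefSeq, build GRCh38.p14, 5′ to 3′ on the strand of the gene: chr4:74444886-74445135 (plus) for AREG, chr4:74364895-74365144 (plus) for EREG and chr5:140346604-140346853 (minus) for HBEGF. Capitals mark matches to a cAMP response element (TGACGTCA), an AP-1 site (TGACTCA or TGAGTCA) or a TATA box (TATAAA), searched on both strands.
AREG: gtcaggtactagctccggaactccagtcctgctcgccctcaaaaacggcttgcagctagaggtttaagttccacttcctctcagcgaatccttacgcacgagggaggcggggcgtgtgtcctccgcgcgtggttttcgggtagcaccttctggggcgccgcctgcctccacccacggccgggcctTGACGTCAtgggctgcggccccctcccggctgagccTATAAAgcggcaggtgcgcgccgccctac
EREG: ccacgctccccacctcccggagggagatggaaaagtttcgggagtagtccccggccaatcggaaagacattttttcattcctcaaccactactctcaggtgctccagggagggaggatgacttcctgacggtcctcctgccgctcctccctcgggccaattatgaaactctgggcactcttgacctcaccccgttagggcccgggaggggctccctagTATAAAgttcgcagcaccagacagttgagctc
HBEGF: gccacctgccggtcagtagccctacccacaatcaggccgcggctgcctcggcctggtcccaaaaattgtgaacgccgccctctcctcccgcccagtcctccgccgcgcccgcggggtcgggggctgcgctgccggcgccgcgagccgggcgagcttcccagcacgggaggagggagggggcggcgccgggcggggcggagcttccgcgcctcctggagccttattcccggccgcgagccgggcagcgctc
The AREG window holds the cAMP response element, starting 65 bases before the start, and a TATA box starting at 29. The EREG window holds a TATA box, starting at 32, and neither of the other motifs. The HBEGF window holds none of these 3 motifs, and has 5 matches to a GC box (GGGCGG, either strand, overlapping matches counted), against 1 for AREG and 0 for EREG. Of 35116 RefSeq windows of this length, 1.65% hold the cAMP response element, 4.2% an AP-1 site, 10.7% the TATA box and 42.6% the GC box. The G and C share of the windows was 65.2% for AREG, 58.0% for EREG and 76.4% for HBEGF, against a median of 58.0% over all of them. A match describes these letters only. Windows were found for 8 of the 10 genes, without NRG1 and ERBB3.

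The libraries held 28504091 to 38546037 gene-assigned reads. SF3B6, the target, was at 25.6% of its siNC level in siSF3B6. Among the siNC libraries, replicate 3 stood apart from replicates 1 and 2. The mitochondrial share of reads was 3.38% in replicate 1, 3.93% in replicate 2 and 9.07% in replicate 3. The last was close to the 10.6% to 11.8% of siSF3B6. Genes with 1 to 9 reads numbered 13952, 14956 and 7731 in siNC replicates 1 to 3, and 7877 to 8325 in siSF3B6. Distance between libraries was measured as the mean chi-square per gene. Between siNC replicates 1 and 2 it was 3.79. From siNC replicate 3 it was 76.3 and 61.3 to siNC replicates 1 and 2. To siSF3B6 replicates 1 to 3 it was 42.8, 43.4 and 70. So siNC replicate 3 was nearer to siSF3B6 replicates 1 and 2 than to its own group. All 8 mesenchymal line markers looked at, such as VIM and AXL, were at 1 FPKM or more, while the luminal markers ESR1, PGR and FOXA1 were under 0.1 FPKM in every library. KRT19, another luminal marker, had 199 ± 19.4 FPKM in siNC, and EPCAM, an epithelial adhesion gene, rose from 3.75 ± 0.215 to 7.74 ± 0.359 FPKM (SD, n = 3). The 8 luminal markers summed to 184 to 219 FPKM in siNC and 187 to 236 in siSF3B6. The 7 fibroblast markers summed to 1.82 to 2.17 FPKM against 2.4 to 3.36, the 6 immune markers to 7.51 to 8.57 against 7.84 to 9.6, and the 4 endothelial markers to 1.46 to 1.6 against 1.02 to 1.22. The part of these differences in the results was not tested, and in bulk RNA a change in the mix of cells and a change in RNA per cell cannot be told apart.

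Of the 10 genes, 6 rose in siSF3B6, 0 fell and 4 did not pass the threshold. Those that rose were the ligands AREG, EREG, HBEGF and NRG1, the receptor ERBB3 and the protease ADAM17, by 1.38-fold to 1.65-fold. TGFA, EGFR, ERBB2 and ERRFI1 did not pass. All 10 were tested in a fit over 16869 genes, and calls are edgeR quasi-likelihood calls at a Benjamini-Hochberg adjusted p under 0.05. In that fit 40.8% of all genes were called, 3509 higher (20.8%) and 3380 lower (20%). The median log2 fold change was 0.47 over the 10 genes and 0.00 over all genes tested. Groups did not overlap for the same 6 genes, against 52.1% of all genes tested, 26.3% with siSF3B6 higher and 25.9% with it lower. Scaled by library size alone, 2459 genes were called higher and 4558 lower and the median of all genes moved by -0.10. Under that scaling 6 of the 10 were again called higher, with AREG at a log2 fold change of 0.52. Against siNC replicate 3 alone, whose spread is then assumed to be that of siSF3B6, 3 of the 10 were called higher (AREG, HBEGF and ADAM17) and 0 lower. Within the libraries numbered 1 and 2, which are close pairs (mean chi-square per gene 3.79 and 2.34, against 18.5 or more for every other pair within a group), 8 were called higher and 1 lower. Of all genes, 55.6% were called in that fit and 13.8% in the fit against siNC replicate 3 alone.

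**Figure D1:**
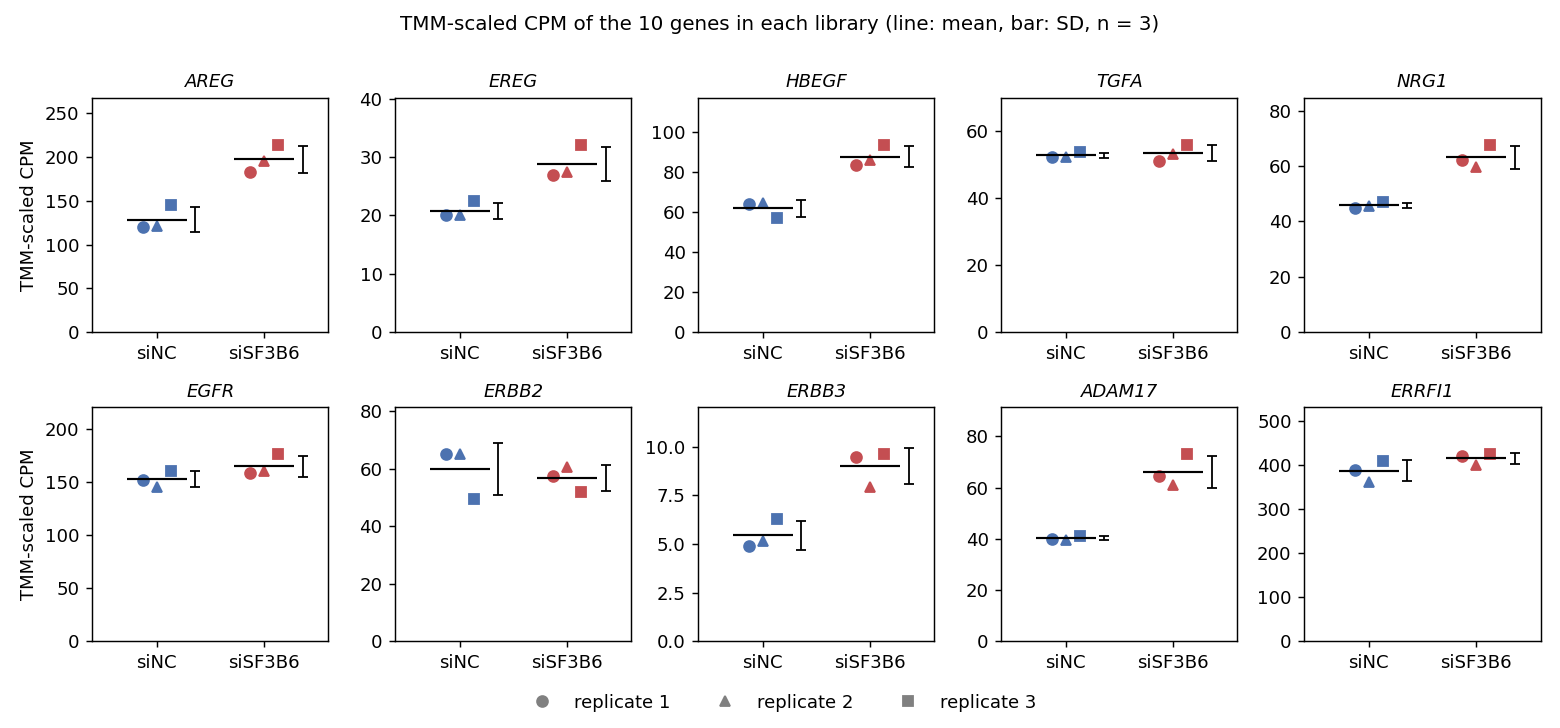
CPM (reads scaled for library depth with TMM factors; y axis from 0) of each gene in the 3 siNC and 3 siSF3B6 libraries; point shapes are replicates, lines are means and bars SD. The groups are apart for AREG, EREG, HBEGF, NRG1, ERBB3 and ADAM17 and overlap for TGFA, EGFR, ERBB2 and ERRFI1; siNC replicate 3 of ERBB2, at 49.3 CPM, lies below all other libraries of that gene.

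Levels per length set the scale of the family in these cells. The deposited FPKM values (fragments per kilobase of gene, scaled for depth) were highest for ERRFI1, with 79.64, 73.36 and 84.62 in siNC replicates 1 to 3, and for AREG, with 62.70, 62.45 and 76.67. These ranges overlapped between libraries, but within each of the 3 siNC libraries ERRFI1 was above AREG. HBEGF followed with a mean of 17.7 ± 1.06 FPKM (SD, n = 3), then EGFR with 10.4 ± 0.626, TGFA with 9.18 ± 0.235 and ERBB2 with 4.95 ± 0.71. ADAM17, with 3.21 ± 0.103, and EREG, with 3.12 ± 0.232, overlapped. NRG1 had 1.83 ± 0.0608 FPKM and ERBB3 0.397 ± 0.0551, the lowest of the 10. All other neighbours in this order had FPKM ranges that did not overlap. The place of NRG1 depends on the length used. Per kilobase of its longest annotated transcript NRG1 had a siNC mean of 7.71 CPM, above ADAM17 at 6.12 and EREG at 4.51.

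In siSF3B6 the order of the FPKM means changed at the top and in the middle, between genes whose ranges overlapped in siNC or in siSF3B6. AREG had 92.11, 98.91 and 107.31 FPKM and ERRFI1 82.89, 79.08 and 83.53, so AREG was above ERRFI1 in all 3 libraries. ADAM17 had a mean of 5.09 ± 0.459 FPKM and ERBB2 4.53 ± 0.368, with ranges that overlapped. Per kilobase of the longest annotated transcript ERBB2 stayed above ADAM17 in siSF3B6, at means of 11.5 and 10.1 CPM. The 5 ligands summed to 94.9, 94.5 and 108 FPKM in siNC and to 130, 138 and 150 in siSF3B6. AREG made up 66.0% to 71.1% of that sum in siNC and 70.9% to 71.7% in siSF3B6. Without AREG the other 4 ligands summed to 31.2 to 32.2 FPKM against 37.9 to 42.4, also without overlap. The 3 receptors summed to 15.5 to 16.2 FPKM against 15.7 to 16.4, with overlap. The ratio of summed ligands to summed receptors was thus 5.87, 6.08 and 6.88 in siNC and 8.29, 8.63 and 9.13 in siSF3B6. These sums are descriptions of the chosen genes, and AREG and EGFR dominate them.

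**Figure D2:**
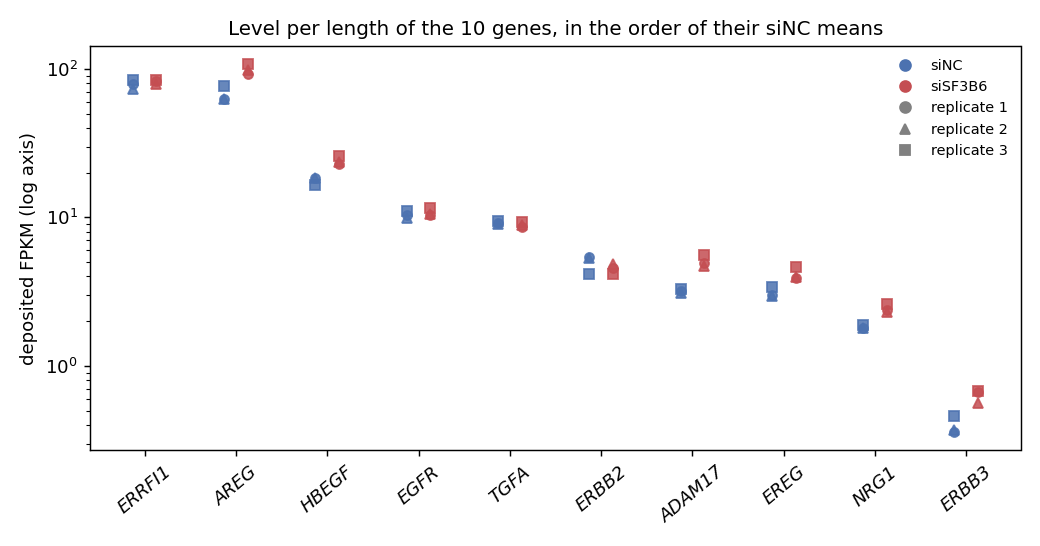
Deposited FPKM (log axis) of each gene in each library, genes ordered by their siNC mean; colours are groups and shapes replicates. The genes span from ERBB3, 0.397 FPKM in siNC, to ERRFI1, 79.2 FPKM, and AREG lies above ERRFI1 in every siSF3B6 library.

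Among the ligands, AREG (amphiregulin, ENSG00000109321.11) was the most abundant. Its change was the largest with all 6 libraries, but not against siNC replicate 3 alone, where HBEGF was at 0.61, nor with an offset for base composition and length, where AREG and HBEGF were both at 0.56. AREG lies on chromosome 4 at 74445134 to 74455009, plus strand, of GRCh38 (GENCODE 29). Its siNC level, in library order, was 120, 121 and 145 CPM (reads scaled for library depth, with TMM factors), and its siSF3B6 level 183, 196 and 214. Every siSF3B6 library was above every siNC library, and siNC replicate 3 lay between the other siNC libraries and siSF3B6. AREG rose by 0.62 in log2 (SE 0.0932, with 3 libraries a group throughout; edgeR adjusted p = 0.000202), or 1.53-fold, and by 0.43 against siNC replicate 3 alone (adjusted p = 0.0397).

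EREG (epiregulin, ENSG00000124882.4) starts 80.0 kb from AREG on the same strand, at 74365143 to 74388751 of chromosome 4, with 0 protein-coding genes between them. In siNC it stood at 20.1, 20 and 22.4 CPM, and in siSF3B6 at 26.9, 27.5 and 32.1. As for AREG, the groups did not overlap and siNC replicate 3 was the highest of the siNC libraries. EREG rose by 0.47 in log2 (SE 0.0965; edgeR adjusted p = 0.00178). An offset for base composition and transcript length brought that to 0.24 (adjusted p = 0.00496), the largest shift it made among the called members. Against siNC replicate 3 alone EREG did not pass (0.35, adjusted p = 0.138). The AREG to EREG ratio of FPKM was 20.8, 21.0 and 22.6 in siNC and 23.7, 24.9 and 23.2 in siSF3B6, so per length AREG was far above EREG in every library.

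HBEGF (heparin-binding EGF-like growth factor, ENSG00000113070.8), which binds EGFR and ERBB4, lies on chromosome 5 at 140332843 to 140346631, minus strand. Its siNC libraries had 63.9, 64.7 and 56.9 CPM, and its siSF3B6 libraries 83.5, 86 and 93.6. Here siNC replicate 3 was the lowest library, on the far side from siSF3B6, unlike for AREG and EREG. The rise was 0.50 in log2 (SE 0.0841; edgeR adjusted p = 0.000415), and 0.61 (adjusted p = 0.01) against siNC replicate 3 alone.

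NRG1 (neuregulin 1, ENSG00000157168.20), the ligand of ERBB3, lies on chromosome 8 at 31639386 to 32767959, plus strand, and has 22 annotated transcripts, which gene counts do not separate. Without knockdown it stood at 44.9, 45.4 and 46.9 CPM, and with it at 62.1, 59.6 and 67.6. The 3 siNC libraries lay close together, and all siSF3B6 libraries lay above them. NRG1 rose by 0.46 in log2 (SE 0.081; edgeR adjusted p = 0.000574). Against siNC replicate 3 alone NRG1 did not pass, at 0.41. On log2(FPKM + 1), a scale that shrinks changes of low genes, it kept its call at 0.28 (limma adjusted p = 0.00788, genes with a mean of at least 0.5 FPKM). On log2(FPKM + 0.1) it was at 0.39.

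TGFA (transforming growth factor alpha, ENSG00000163235.16; chromosome 2, 70447280 to 70554193, minus strand) was the ligand that did not pass. The siNC libraries gave 52.3, 52.2 and 53.6 CPM and the siSF3B6 libraries 51, 53.1 and 55.8, so the groups overlapped. TGFA had a log2 fold change of 0.02 (95% interval -0.15 to 0.18; edgeR adjusted p = 0.889). That interval lies below those of EREG (0.26 to 0.67), HBEGF (0.32 to 0.68), NRG1 (0.29 to 0.64) and AREG (0.42 to 0.82). The differences between genes were not tested. Its sign changed with library-size scaling, among other alternatives.

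The other ligands of the family were low or nearly absent. In siNC, EGF had 0.433 ± 0.0651 FPKM and BTC 0.84 ± 0.0917 (SD, n = 3), beside 0.397 ± 0.0551 for the member ERBB3. EGF, the founding member, had 121, 100 and 148 reads in siNC and 104, 122 and 105 in siSF3B6. BTC (betacellulin) had 72 to 91 reads per library over both groups and NRG2 30 to 42. EGF, BTC and NRG2 were tested and none passed (edgeR adjusted p of 0.373, 0.696 and 0.598). EPGN had at most 5 reads, NRG3 at most 2 and NRG4 at most 10 in any library, too few to test.

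Among the receptors, ERBB3 rose and EGFR and ERBB2 did not pass. EGFR (ENSG00000146648.20; chromosome 7, 55019021 to 55211628, plus strand) was the most abundant receptor and took 63.3% to 70.7% of the summed receptor FPKM in each library. Its values were 152, 145 and 160 CPM for siNC against 158, 160 and 176 for siSF3B6, with overlap. EGFR had a log2 fold change of 0.11 (95% interval -0.06 to 0.28; edgeR adjusted p = 0.295). Within the libraries numbered 1 and 2 it passed, at 0.10 (edgeR adjusted p = 0.0383). These are the close pairs, and the SE was 0.0407 there against 0.0787 with all 6 libraries.

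ERBB2 (HER2, ENSG00000141736.14; chromosome 17, 39687914 to 39730426, plus strand) gave 65, 65 and 49.3 CPM for siNC against 57.4, 60.7 and 51.9 for siSF3B6. In both groups replicate 3 was the lowest library, and the siNC range enclosed all siSF3B6 values. ERBB2 had a log2 fold change of -0.08 (95% interval -0.31 to 0.16; edgeR adjusted p = 0.602). It was 0.19 against siNC replicate 3 alone, and 0.06 with the offset for base composition and length (edgeR adjusted p = 0.535). Within the close pairs numbered 1 and 2 it was -0.14 (edgeR adjusted p = 0.0183), with an SE of 0.0502 against 0.109. The direction of ERBB2 thus changed with the libraries and the fit. ERBB2 shares 571 exonic bases (5.5%) with MIEN1 and 194 with PGAP3 on the opposite strand. Both neighbours fell, MIEN1 by 0.54 and PGAP3 by 0.52 on the log2 scale (edgeR adjusted p = 0.00102 and 0.00386), but neither passed against siNC replicate 3 alone (0.0872 and 0.18), and it is not stated whether counting used strand.

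ERBB3 (HER3, ENSG00000065361.17; chromosome 12, 56076799 to 56103505, plus strand) was low and rose. It had 152, 156 and 211 reads in siNC and 278, 293 and 294 reads in siSF3B6, or 4.87, 5.17 and 6.28 CPM against 9.46, 7.93 and 9.61 CPM. The groups did not overlap, and siNC replicate 3 was nearest to siSF3B6. ERBB3 rose by 0.72 in log2 (SE 0.134, 95% interval 0.43 to 1.01; edgeR adjusted p = 0.000892). It did not pass against siNC replicate 3 alone (0.50, adjusted p = 0.0797) or on log2(FPKM + 1) without a filter (0.23, adjusted p = 0.0839), a scale that shrinks changes of low genes. Per length ERBB3 remained under ERBB2 in every library, with an ERBB3 to ERBB2 ratio of FPKM of 0.0669, 0.0693 and 0.111 in siNC and 0.146, 0.115 and 0.164 in siSF3B6. ERBB4, the fourth receptor of the family, had 15 to 32 reads per library and did not pass (edgeR adjusted p = 0.92).

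ADAM17 (ENSG00000151694.14; chromosome 2, 9488486 to 9556732, minus strand), the protease that releases AREG, EREG, HBEGF and TGFA from the membrane, had the smallest adjusted p of the 10. Control libraries stood at 39.9, 39.6 and 41.2 CPM and knockdown libraries at 64.5, 61 and 73. The siNC libraries were nearly level, and every siSF3B6 library was above them. ADAM17 rose by 0.72 in log2 (SE 0.0868; edgeR adjusted p = 3.98e-05), by 0.67 against siNC replicate 3 alone (adjusted p = 0.00967) and by 0.51 with the offset for base composition and length. ADAM17 shares 1323 exonic bases (12.3%) with IAH1 on the opposite strand, and IAH1 had 35.6 ± 1.21 CPM in siNC and 34.6 ± 1.58 in siSF3B6 (SD, n = 3; edgeR adjusted p = 0.707).

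ERRFI1 (ENSG00000116285.13; chromosome 1, 8004404 to 8026308, minus strand), the feedback inhibitor of EGFR, was abundant in both groups. Its siNC values were 389, 362 and 409 CPM and its siSF3B6 values 420, 399 and 424, with overlap. ERRFI1 had a log2 fold change of 0.10 (95% interval -0.07 to 0.27; edgeR adjusted p = 0.344). Within the close pairs numbered 1 and 2 it passed, at 0.13 (edgeR adjusted p = 0.00338), with an SE of 0.0381 against 0.0806 with all 6 libraries. With the offset ERRFI1 was at -0.01.

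**Figure D3:**
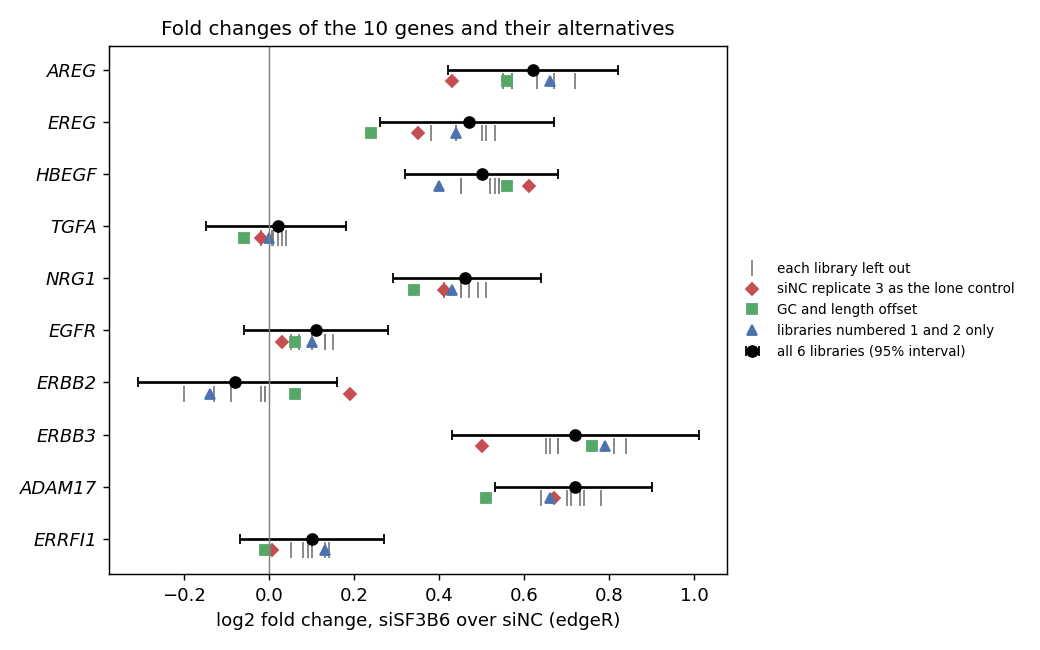
Log2 fold change of each gene, siSF3B6 over siNC (x axis), with its 95% interval from edgeR (black), and below it the values with each library left out (ticks) and under 3 other choices of libraries or offset (coloured). The 6 called genes lie right of 0 under every choice drawn, while ERBB2 lies at -0.08 with all libraries and at 0.19 against siNC replicate 3 alone.

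ERBB3 and ADAM17 had the largest log2 fold changes among the called members, both 0.72, with ERBB3 ahead by less than the rounding, and ADAM17 was ahead in other fits, such as that against siNC replicate 3 alone. By the naming rule the profile of ERBB3 over the 6 libraries was compared with those of 11298 other genes of at least 5 CPM, as the root-mean-square difference of log2 CPM after centring each gene on its mean. The closest were ATG4A (0.0314), ZNF468 (0.0434), ZNF518B (0.0503), ZNF608 (0.054) and GSPT2 (0.0574). Their log2 fold changes were 0.74, 0.71, 0.70, 0.75 and 0.78, and ERBB3 is the only receptor among these 6 genes. This is a description over 6 libraries that share the group difference.

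The release machinery beyond ADAM17 was taken from a list of 14 proteases, their partners and inhibitors. Of these, 4 rose, 1 fell and 9 did not pass, beside 20.8% higher and 20% lower of all genes tested. The median log2 fold change was 0.18, against 0.00 over all genes tested. ADAM19, a protease that can cleave neuregulins, had the largest change of the 14, with 25.1 ± 2.29 CPM in siNC against 59.1 ± 3.75 in siSF3B6 (mean ± SD, n = 3 here and in the lists that follow), or 1.24 in log2 (edgeR adjusted p = 1.42e-06). FURIN, which removes the pro-domains of ADAM proteases, went from 41.2 ± 0.705 to 67.2 ± 2.27 CPM (0.71), and ADAM10, which releases EGF and BTC, from 113 ± 9.21 to 162 ± 15.3 CPM (0.52). The fourth was TIMP3, an inhibitor of ADAM17, named here after its value was seen, with 386 ± 13.1 and 513 ± 18.2 CPM (0.41). So the list's risers include proteases and an inhibitor of them. FRMD8, which holds the ADAM17 complex at the cell surface, fell from 56.2 ± 6.35 to 40.8 ± 5.32 CPM (-0.46). The calls of ADAM10 (adjusted p = 0.0623), TIMP3 (0.0557) and FRMD8 (0.223) did not hold against siNC replicate 3 alone, a fit in which 2 of the 14 rose and 0 fell. In log2 they were at 0.40, 0.35 and -0.29 there. With the offset, a fit in which 46.7% of all genes were called, 8 rose and 2 fell. ADAM10 was then at 0.31, FRMD8 at -0.25 and FURIN at 0.92. Within the libraries numbered 1 and 2, 8 rose and 3 fell.

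Downstream of the receptors, of 19 tested adaptors and PI3K genes, 5 rose and 4 fell (median 0.08), shares near the 20.8% and 20% of all genes. The number that fell was 2 without siNC replicate 1, siNC replicate 2, siSF3B6 replicate 1 or siSF3B6 replicate 2. SOS1, the exchange factor that loads RAS, went from 21.8 ± 1.96 to 31.6 ± 3.36 CPM (log2 fold change 0.53). EPS8, an EGFR substrate, had 0.51, and STAT3, a transcription factor, 0.48. VAV2, a guanine nucleotide exchange factor, fell from 43.4 ± 4.75 to 25.8 ± 0.945 CPM (-0.75). Against siNC replicate 3 alone 1 of the 19 rose and 1 fell, and SOS1 (0.39, adjusted p = 0.107) and EPS8 (0.39, adjusted p = 0.0838) lost their calls. With the offset SOS1 was at 0.32 and EPS8 at 0.33.

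In the RAS-ERK cascade 7 of 16 genes rose and 4 fell (median 0.02), beside 20.8% higher and 20% lower of all genes tested. The balance turned to 4 that rose and 6 that fell with scaling by library size alone and on the filtered FPKM scales, and without siNC replicate 2 it was 4 and 4. The RAS genes went apart: NRAS rose from 113 ± 3.83 to 180 ± 17.4 CPM (0.67), and HRAS fell from 154 ± 15.2 to 91.8 ± 14.3 CPM (-0.75). NF1, which switches RAS off, rose from 13.3 ± 1.19 to 22.3 ± 2.67 CPM (0.75), and MAP2K2 (MEK2), a kinase of ERK, fell from 373 ± 45.8 to 245 ± 25.0 CPM (-0.61). Against siNC replicate 3 alone 3 rose and 2 fell, and MAP2K2 lost its call (-0.40, adjusted p = 0.0541). With the offset HRAS was at -0.43 and MAP2K2 at -0.39.

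Of 23 tested genes of receptor inhibition, endocytosis and degradation, 10 rose and 3 fell (median 0.15). Of all genes tested, 20.8% were higher and 20% lower. LRIG3, of a family of membrane proteins that regulate ERBB receptors, went from 6.77 ± 0.321 to 12.3 ± 1.66 CPM (log2 fold change 0.85). CBLB, a ubiquitin ligase for EGFR, had 20.4 ± 0.165 and 33.8 ± 0.97 CPM (0.73), and SH3KBP1, a CBL partner in endocytosis, had 0.75. PTPRJ, a receptor phosphatase that acts on EGFR, went from 145 ± 4.09 to 236 ± 6.72 CPM (0.71). The 3 that fell were CBL, from 37.9 ± 1.28 to 27.5 ± 1.2 CPM (-0.46), TNK2 (-0.55) and HGS (-0.30). They were named after their values were seen. Against siNC replicate 3 alone 5 of the 23 rose and 1 fell, with the offset 10 rose and 6 fell, and on log2(FPKM + 1) without a filter 6 rose and 2 fell.

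Of 10 transcripts known to follow ERK activity, 6 rose and 1 fell (median 0.27), beside 20.8% higher and 20% lower of all genes tested. With library size alone 4 rose and 1 fell. SPRY2, a feedback inhibitor of the pathway, went from 48.9 ± 0.862 to 93.1 ± 5.87 CPM (0.93), and EPHA4, a receptor kinase, from 10.9 ± 1.04 to 20.6 ± 3.02 CPM (0.92). DUSP6, the phosphatase of ERK, rose from 352 ± 5.35 to 553 ± 13.6 CPM (0.65), and PHLDA1 from 671 ± 14.7 to 912 ± 17.5 CPM (0.44). ETV4, a transcription factor and the only one that fell, named after its value was seen, had 104 ± 2.41 and 77.1 ± 7.51 CPM (-0.43). It did not pass against siNC replicate 3 alone (adjusted p = 0.063), and was at -0.21 with the offset. RNA levels do not measure ERK activity itself, which was not assayed here.

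**Figure D4:**
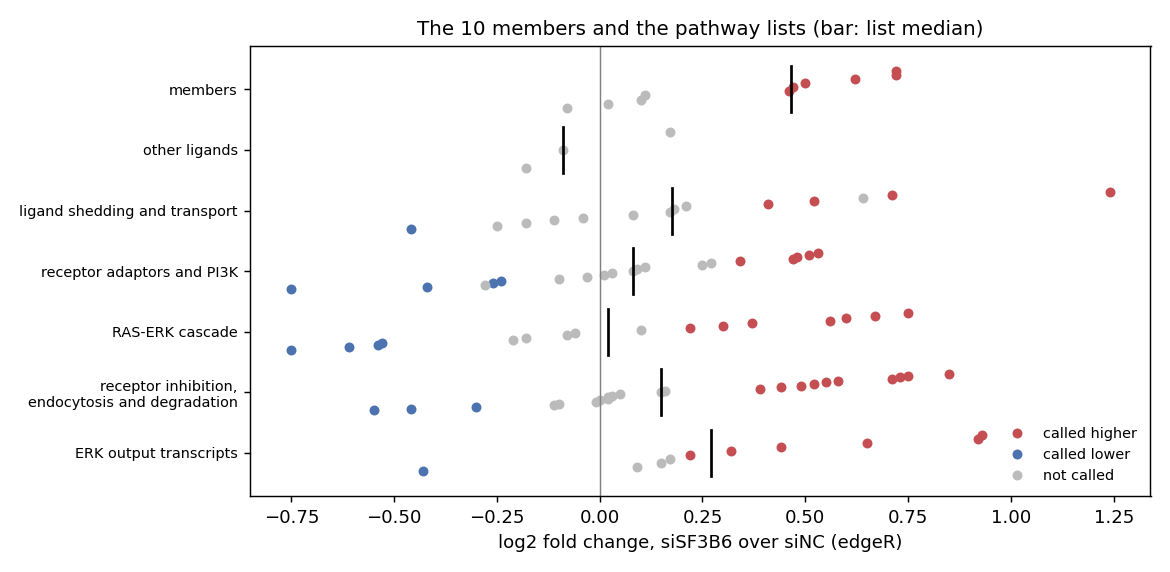
Log2 fold change of every tested gene of the 10 members and of 6 pathway lists (x axis; vertical bars are list medians; red called higher, blue called lower, grey not called). The members have 6 genes above 0.4 and 4 between -0.08 and 0.11, while the RAS-ERK cascade spreads from -0.75 to 0.75 around a median of 0.02.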

How the data were processed

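Polyadenylated RNA of 6 libraries was analysed, 3 siSF3B6 and 3 siNC, grouped by their titles. All titles name MDA-MB-231, while the cell line field carries a name whose number goes up by 1 from sample to sample; the titles were followed. The authors deposited unnormalized whole-number read counts for 39323 genes and FPKM for 39210. Per the submitters' processing notes, HISAT2, DESeq2 and hg38 were used. No counter, strand setting or annotation is given in the sources used here. Counts were fitted with edgeR 4.0.16 in R 4.3.3 (filterByExpr, TMM factors, quasi-likelihood test, no replicate block, Benjamini-Hochberg over 16869 genes, threshold 0.05). SE values come from the log2 fold change and its F statistic. Alternatives (21 in all) included DESeq2 1.42.0, limma 3.58.1 on voom values or log2(FPKM + 1) and log2(FPKM + 0.1), other scalings and filters, libraries left out, and a lowess offset for GC content and length. GENCODE 29 (GRCh38), matched for 96.1% of rows by identifier without version, gave positions and lengths; promoters and motif shares are from RefSeq.

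The members and gene lists were chosen with earlier results of these data known. Genes named were all members, SF3B6, and every other family ligand and receptor. Up to 4 called genes of at least 5 CPM with the largest change were named per pathway list. The 5 genes closest in profile to the called member of largest change were also named. TIMP3, ETV4, CBL, TNK2, HGS and the overlapping neighbours were added after their values were seen.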

Additional observations from a re-analysis of the deposited data

How the results depend on the processing

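The 6 called members were called higher in all of the 6 fits that left out 1 library (6 to 6 higher, 0 to 0 lower). Over all genes these fits gave 2503 to 3881 higher and 2503 to 3690 lower, and over the pathway lists 27 to 33 higher (32 with all libraries) and 10 to 16 lower (13). With siNC replicate 3 as the lone control, 3 members were higher, 16 pathway genes were higher and 4 lower, and 1178 genes were higher and 1293 lower overall; fewer libraries enter that fit. With only the libraries numbered 1 and 2, 8 members were higher and 1 (ERBB2) lower, 39 pathway genes were higher and 21 lower, and 4870 genes were higher and 4600 lower overall. With the GC and length offset 20 pathway genes were lower, and 46.7% of all genes were called. On log2(FPKM + 1) without a filter 1561 genes and 19 pathway genes were higher. The cause of these shifts was not tested.

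Signs reversed for 3 members that did not pass. TGFA had -0.09 with library size only, -0.03, -0.04 and -0.03 on log2(FPKM + 1), log2(FPKM + 0.1) and unfiltered log2(FPKM + 1), -0.02 without siSF3B6 replicate 3 (0.04 at most with another library left out), -0.02 with siNC replicate 3 as the lone control, -0.0013 with the libraries numbered 1 and 2 and -0.06 with the offset. ERBB2 had 0.19 with siNC replicate 3 as the lone control and 0.06 with the offset. ERRFI1 had -0.0022 with library size only and -0.0095 with the offset.

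With a replicate block, 6 members were higher and 0 lower, and 4047 genes were higher and 4005 lower overall. Deviations of same-numbered libraries from their group means correlated at 0.0331, 0.102 and 0.123, and each library correlated best with its own number. Differently numbered libraries of the 2 groups correlated at -0.108 to 0.0261. With the block the SE of AREG was 0.0585, against 0.0932 without it. The labels do not say whether the numbers mark a shared batch, and this was not tested. The counts of the members, 152 to 14755 reads per gene and library, limit precision mainly for ERBB3.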

Other observations

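The length behind the deposited FPKM can be read from the ratio of counts to FPKM. Divided by the union of exons in GENCODE 29 it was 1.16 to 1.17 for 8 of the 10 members, but 2.22 for NRG1 and 1.52 for ERBB3. By that ratio the length behind the FPKM of NRG1 and ERBB3 was greater, relative to GENCODE 29, than for the other 8, and a greater length gives a lower FPKM at the same count. Per kilobase of the longest GENCODE 29 transcript, NRG1 took place 7 of 10 in siNC (7.71 ± 0.181 TMM-scaled CPM per kilobase, SD, n = 3), above ADAM17 (6.12 ± 0.13) and EREG (4.51 ± 0.29), in place of 9 by FPKM. ERBB3 was last on both scales, at 0.919 ± 0.126 CPM per kilobase. Fold changes within a gene do not use its length in the count test.

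EGFR has a second RefSeq start site inside the gene. The 250 bases before it held 2 AP-1 matches and 2 TATA matches, against 0 and 0 before the first start, and their G and C share was 38.8% against 73.6%. Gene counts do not separate the starts.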
